A study of Mus musculus with 8 samples.

Results

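Endothelial cells hold to one another through adherens junctions, tight junctions and gap junctions, and 10 genes for parts of these junctions are described here across hematopoietic clusters and endothelium of the midgestation mouse embryo. The genes were chosen by name and function, though with earlier results of these data known. All 10 were present among the 24015 genes of the deposited table. They are Cdh5 and Pecam1 (adhesion at the lateral border), Cldn5, Esam, Tjp1, Jam2 and Jam3 (tight junctions) and Gja1, Gja4 and Gja5 (gap junctions).

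RNA-Seq had been carried out on 8 libraries in 4 groups of 2, each from 100 sorted cells of the E11.5 aorta-gonad-mesonephros region (AGM) with its vitelline and umbilical arteries. Embryos were either wild type or homozygous for Sl (Sl/Sl), a deletion that takes in Kitl, the gene for the ligand of the receptor Kit, on a C57BL/6 background, and embryos of one genotype had been pooled before sorting. The gate was Ter119- VE-Cadherin+ Kit+ for clusters and, for endothelium, Ter119- VE-Cadherin+ Kit- CD41- CD45-, with no other treatment, so that every library was selected for the protein made from Cdh5. The paper names 2 sorting experiments, and the labels do not say which embryos or which sort went into which library. The p-values therefore measure the spread between these libraries, which may be in part technical.

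VE-cadherin, the product of Cdh5, joins neighboring endothelial cells at adherens junctions and is tied to actin through catenins. Tight junctions seal the space between cells with claudins and immunoglobulin-family proteins that are held on scaffolds such as ZO-1. Connexins form channels that join the cytoplasm of neighboring cells, and in arteries the endothelium is known for Cx37 and Cx40, the products of Gja4 and Gja5, beside the widespread Cx43, the product of Gja1. Clusters bud into the lumen from endothelium of the large arteries and start to make blood.

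Counts on genes summed to between 8933236 and 13428214 per library. Kitl, looked at first as a check of genotype, gave 1250 and 923 counts for the endothelium of wild type embryos, 6 and 2 for Sl/Sl endothelium, 110 and 0 for wild type clusters, and 1 and 3 for Sl/Sl clusters. This gene did not set the wild type clusters library labelled replicate 2, with 0 counts, apart from the Sl/Sl libraries. The cell type labels were checked with lists of 15 endothelial and 14 hematopoietic markers that hold none of the 10 junction genes, as sums of RPKM (reads per kilobase of exon, scaled to the library's counts on genes). The endothelial sum was 4258 to 4722 in the endothelium libraries and the hematopoietic sum 79.4 to 86.4. In clusters the hematopoietic sum was 669 to 1145, while the endothelial sum was 787 and 290.4 for wild type, 2011 and 512 for Sl/Sl. The sums of 4 further lists, and those of the megakaryocyte and sarcomere markers given below, overlapped between the cell types. Mesenchymal markers summed to 179 to 2019.5 RPKM in clusters and 127 to 808 in endothelium. Epithelial ones summed to 47.3 to 147 and 23.0 to 90.8, and erythroid ones to 40.3 to 415 and 47.1 to 144. Germ cell ones summed to 6.27 to 109.9 and 8.03 to 21.2. The highest of these was wild type clusters replicate 1, where Dppa3 alone was at 101 RPKM. Wild type clusters replicate 2 stood lowest and Sl/Sl clusters replicate 1 highest in endothelial markers among the clusters, and results that rest on them are given with and without them.

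The sequences just upstream of 3 of the genes are shown to place them in the genome: both connexin genes with the widest difference between cell types and the one junction gene that was not lower in clusters. Each line holds the 250 bases before the start of the gene in the deposited table, read 5′ to 3′ along the gene from the mm9 genome. Capitals mark CAGGAA or CCGGAA on either strand, a core that ETS factors, a family active in endothelium, are known to bind. The coordinates are chr4:126991284-126991533 on the - strand for Gja4, chr3:96836075-96836324 on the + strand for Gja5 and chr9:26963007-26963256 on the - strand for Jam3.
Gja4: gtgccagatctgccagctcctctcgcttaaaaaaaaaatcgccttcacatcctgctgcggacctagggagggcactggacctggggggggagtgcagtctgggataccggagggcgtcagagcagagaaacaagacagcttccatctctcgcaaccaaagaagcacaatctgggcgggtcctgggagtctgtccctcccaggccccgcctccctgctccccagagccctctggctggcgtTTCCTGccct
Gja5: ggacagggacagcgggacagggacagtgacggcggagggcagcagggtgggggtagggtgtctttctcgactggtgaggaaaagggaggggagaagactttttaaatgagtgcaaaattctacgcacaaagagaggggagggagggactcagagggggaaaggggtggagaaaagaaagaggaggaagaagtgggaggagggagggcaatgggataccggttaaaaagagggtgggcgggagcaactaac
Jam3: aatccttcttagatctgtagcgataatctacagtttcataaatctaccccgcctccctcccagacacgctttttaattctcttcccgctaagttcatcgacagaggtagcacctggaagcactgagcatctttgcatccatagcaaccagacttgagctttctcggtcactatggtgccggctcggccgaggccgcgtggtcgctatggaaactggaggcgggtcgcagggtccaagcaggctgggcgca

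In the window of 300 bases from 250 before to 50 after the start, CAGGAA or CCGGAA was found on either strand upstream of 4 of the 10 junction genes, Cdh5, Pecam1, Esam and Gja4. Of the 23808 starts read, 41.7% held it in a window of the same length, so that the share among the junction genes was close to that of genes in general. The GC box GGGCGG was found for 7 of the 10 against 45% of all starts, and TATAAA for 0 of 10 against 13.1%. A match is a stretch of letters and not a bound site, and no match says only that these letters are not in the window. For the 5 junction genes that RefSeq's promoter table held (build GRCm38; Cldn5, Tjp1, Gja1, Gja4 and Gja5), its sequence was the same as the one read from mm9.

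The first question was how far clusters differ in these genes from the sorted endothelium of the same region. The part of it that clusters bud from was not sorted apart. Over both genotypes, 9 of the 10 junction genes were called higher in endothelium by the quasi-likelihood test of edgeR (p adjusted by Benjamini-Hochberg over 13908 tested genes, threshold 0.1). Of all tested genes 8.48% were called higher in endothelium, and the median over the junction genes was a log2 fold change of 2.18, against -0.07 over all genes. All 9 were also separated without overlap, each of the 4 endothelium libraries lying above each of the 4 cluster libraries, as was the case for 8.12% of all genes. Jam3 was the exception. Fewer endothelial cells in a sorted sample and less RNA of these genes per cell cannot be told apart in such pooled libraries, and the endothelial marker sums above move in the same direction. Macrophage markers moved the other way, with sums of 210.1 to 774 RPKM in clusters (Lyz2 alone 126 to 696) and 5.39 to 29.5 in endothelium. Of these 10 markers 8 were called lower in endothelium. Among the 13908 tested genes 2310 were called, 1180 of them higher in endothelium and the rest lower. Of the 10 megakaryocyte markers 8 were called lower as well, with sums of 123 to 2262 RPKM in clusters and 102 to 210.3 in endothelium. In endothelium Clec1b alone made up 84.4 to 205.5 RPKM of these sums. The 9 sarcomere markers summed to 16.2 to 591 RPKM in clusters and 51.0 to 100.2 in endothelium. The part of these lists in the result was not tested.

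**Figure D1:**
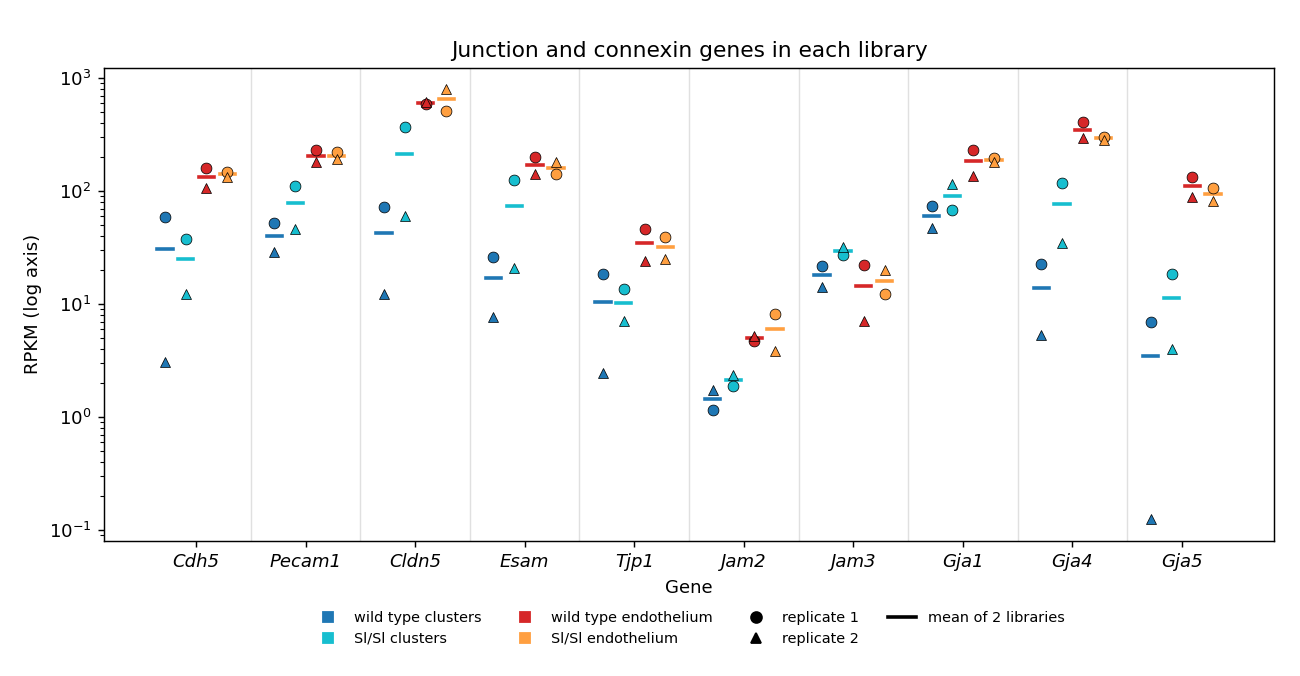
Level of each junction gene in each library in RPKM on a log axis, with replicate 1 as a circle, replicate 2 as a triangle and a bar at the mean of 2 libraries. The endothelium libraries lie above all cluster libraries for 9 genes, while Jam3 overlaps and Gja5 falls to 0.125 RPKM in wild type clusters replicate 2.

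Among the adhesion genes of the lateral border, Cdh5 (chromosome 8, 106625525 to 106668402, 12 exons) was at 59.1 and 3.08 RPKM in wild type clusters and at 38.0 and 12.3 in Sl/Sl clusters. In endothelium it was at 161 and 107 RPKM in wild type and at 149 and 132 in Sl/Sl. The 4 endothelium libraries lay close together, whereas the clusters spread over a 19.2-fold range although all cells had been sorted for its product. The log2 fold change, endothelium over clusters, was 2.43 (SE 0.72, adjusted p = 0.0618), and because of the sort it is not independent of how the cells were chosen. Pecam1 (chromosome 11, 106515532 to 106576595, 15 exons), for a homophilic adhesion molecule that leukocytes and platelets carry as well, was at 52.5 and 28.7 RPKM in wild type clusters and 111 and 46.4 in Sl/Sl clusters. In endothelium it was at 230.2 and 182 RPKM in wild type and at 221 and 193 in Sl/Sl. Its difference was smaller than that of Cdh5 and had the smaller error, with a log2 fold change of 1.99 (SE 0.30, adjusted p = 0.00386).

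Of the tight junction genes, Cldn5 (chromosome 16, 18776940 to 18778355, a single exon), for the main claudin of endothelial strands, had the highest level of the 10 genes in every endothelium library. It was at 593 and 622 RPKM in wild type and at 514 and 801 in Sl/Sl endothelium. In clusters it was at 73.0 and 12.4 RPKM in wild type and at 368 and 60.8 in Sl/Sl, so that replicate 1 of Sl/Sl clusters came nearest to endothelium. The log2 fold change was 2.86 (SE 0.63, adjusted p = 0.0214). Esam (chromosome 9, 37335674 to 37345904, 7 exons), for an immunoglobulin-family adhesion molecule also known from platelets and blood stem cells, was at 26.2 and 7.64 RPKM in wild type clusters and 127 and 21.1 in Sl/Sl clusters. In endothelium it was at 199 and 143 RPKM in wild type and at 142 and 181 in Sl/Sl. The order of the cluster libraries was that of Cldn5, and the log2 fold change was 2.36 (SE 0.55, adjusted p = 0.0269).

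Tjp1 (chromosome 7, 72441051 to 72516130, 28 exons) encodes ZO-1, the scaffold beneath tight junctions, which is found in many cell types. It was at 18.4 and 2.48 RPKM in wild type clusters, at 13.6 and 7.07 in Sl/Sl clusters, at 46.2 and 24.0 in wild type endothelium and at 39.6 and 25.1 in Sl/Sl endothelium. The groups did not overlap, but the gap between 18.4 and 24.0 RPKM was narrow, and the log2 fold change was 1.83 (SE 0.54, adjusted p = 0.0626). Jam2 (chromosome 16, 84774368 to 84826620, 10 exons), for JAM-B, was the lowest of the 10 genes in endothelium, at 4.69 and 5.28 RPKM in wild type and at 8.20 and 3.83 in Sl/Sl. In clusters it was at 1.16 and 1.75 RPKM in wild type and at 1.91 and 2.35 in Sl/Sl, with a log2 fold change of 1.76 (SE 0.55, adjusted p = 0.0762).

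Jam3 (chromosome 9, 26904969 to 26963006, 9 exons) encodes JAM-C, the binding partner of JAM-B, which is also known from blood stem cells. It did not follow the other junction genes. In clusters it was at 21.7 and 14.3 RPKM in wild type and at 27.2 and 31.8 in Sl/Sl, and in endothelium at 22.1 and 7.16 RPKM in wild type and at 12.4 and 20.0 in Sl/Sl. The cell types overlapped, and the log2 fold change was -0.45 (SE 0.44, adjusted p = 0.571). As Jam2 was low in clusters, the Jam3 level divided by that of Jam2 was 8.17 to 18.8 in the cluster libraries and 1.36 to 5.22 in endothelium, without overlap. Jam2 was without overlap by itself, and this ratio was not set against those of other gene pairs.

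The connexins showed the widest and the narrowest of the 9 called differences. Gja1 (chromosome 10, 56097106 to 56110225, 2 exons) was at 74.6 and 47.2 RPKM in wild type clusters and at 68.3 and 115 in Sl/Sl clusters, against 229.5 and 137 in wild type endothelium and 196 and 182 in the Sl/Sl one. It was thus 2.74-fold higher in endothelium (log2 fold change 1.45, SE 0.23, adjusted p = 0.00558), and in wild type clusters its level was above those of the other 2 connexins. Gja4 (chromosome 4, 126988664 to 126991283, 2 exons) was at 22.5 and 5.38 RPKM in wild type clusters and 118 and 34.8 in Sl/Sl clusters, against 407 and 293 in wild type endothelium and 302 and 286 in the Sl/Sl one. The fold was 10.8 (log2 fold change 3.43, SE 0.50, adjusted p = 0.00338). Gja5 (chromosome 3, 96836325 to 96857557, 3 exons) was at 6.90 and 0.125 RPKM in wild type clusters, the latter from 5 counts, and at 18.5 and 4.05 in Sl/Sl clusters. In endothelium it was at 135 and 89.2 RPKM in wild type and at 108 and 82.8 in Sl/Sl, and the fold was 18.1 (log2 fold change 4.17, SE 0.90, adjusted p = 0.0197).

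The calls of 3 genes rested on single libraries. Cdh5 was no longer past the threshold without Sl/Sl clusters replicate 2 (adjusted p = 0.112), Tjp1 without the same library (0.124) or without replicate 1 of wild type (0.114) or Sl/Sl endothelium (0.103), and Jam2 without any 1 of 7 libraries (0.123 to 0.264), the exception being Sl/Sl endothelium replicate 2. When wild type clusters replicate 1 was left out, values rose to 4.06 for Cdh5, 2.83 for Tjp1, 4.08 for Gja4 and 6.52 for Gja5, and when Sl/Sl clusters replicate 1 was left out to 3.80 for Cldn5 and 3.29 for Esam. Without wild type clusters replicate 2 values fell to 1.94 for Cdh5, 1.39 for Tjp1, 3.06 for Gja4, 3.65 for Gja5 and 2.45 for Cldn5, and without Sl/Sl clusters replicate 2 to 1.97 for Esam. With both cluster libraries that stand apart left out, 8 of the 10 genes were called, Jam2 being lost (adjusted p = 0.251).

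**Figure D2:**
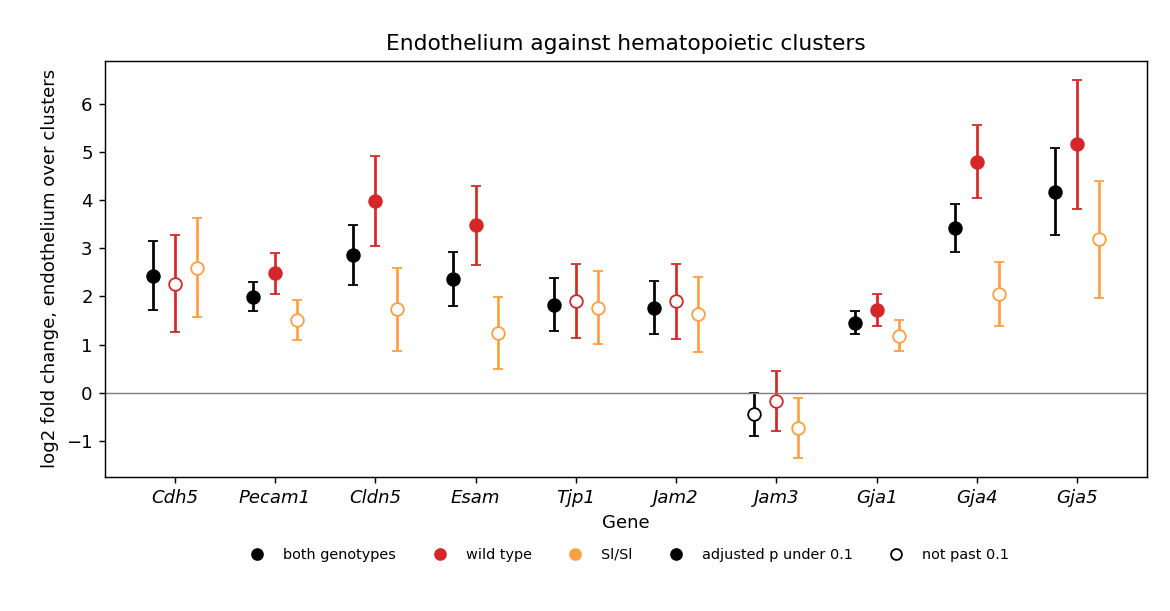
Log2 fold change of each junction gene, endothelium over clusters, over both genotypes, in wild type and in Sl/Sl, with bars of 1 standard error from edgeR and filled points where the adjusted p was under 0.1. Over both genotypes 9 points are filled, in wild type 6 and in Sl/Sl 0, while 9 of 10 genes lie above 0 in each.

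Within each genotype the same contrast rested on 2 libraries against 2. In wild type, 6 of the 10 junction genes were called higher in endothelium, against 4.56% of all genes. They were Gja5 (log2 fold change 5.16), Gja4 (4.80), Cldn5 (3.99), Esam (3.48), Pecam1 (2.48) and Gja1 (1.72), with adjusted p between 0.00998 and 0.0666. Without wild type clusters replicate 2, Esam and Gja1 were no longer past the threshold (adjusted p = 0.138 and 0.104), and the values of Gja4, Gja5, Cldn5 and Esam were 4.09, 4.15, 3.19 and 2.83. Without wild type clusters replicate 1 they were 6.11, 9.85, 5.71 and 4.57. In Sl/Sl, 0 of the 10 genes were called, against 0.985% of all genes, and the smallest adjusted p among them was 0.139 for Pecam1. At an unadjusted p under 0.05 edgeR gave 6 of them, among 1997 genes in all, and DESeq2 called 4, among 1631 genes of which 642 were higher in endothelium. All 10 were nonetheless without overlap between the 2 Sl/Sl groups, 9 of them higher in endothelium, where 18.4% of all genes were, and Jam3 lower, as were 28.4% of all genes. In the same order as above, the Sl/Sl log2 fold changes were 3.19 for Gja5, 2.06 for Gja4, 1.73 for Cldn5, 1.24 for Esam, 1.51 for Pecam1 and 1.19 for Gja1. Without Sl/Sl clusters replicate 1 they were 4.72, 3.25, 3.60, 3.11, 2.32 and 0.88, and 4 of the genes (Gja4, Cldn5, Esam and Pecam1) were called. Without Sl/Sl clusters replicate 2 they were 2.46, 1.41, 0.94, 0.45, 0.99 and 1.57. The 2 comparisons share no libraries, but their tests used a spread estimated over all 8 libraries. Calls in Sl/Sl therefore depended on the wild type libraries too. Without wild type clusters replicate 1 the Sl/Sl log2 fold changes of Gja5 and Gja4 stayed at 3.19 and 2.06, while the calls changed. The test of the difference between the 2 comparisons (the interaction) passed the threshold for 0 of the 10 genes.

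The levels of the genes could be ranked within endothelium, where RPKM allows genes to be set side by side. The order by mean level was Cldn5 (633 ± 121 RPKM, SD, n = 4), Gja4 (322 ± 57.2), Pecam1 (206 ± 22.8), Gja1 (186 ± 38.2), Esam (166 ± 28.5), Cdh5 (137 ± 23.4), Gja5 (104 ± 23.5), Tjp1 (33.7 ± 10.95), Jam3 (15.4 ± 6.91) and Jam2 (5.50 ± 1.89). Each gene was above the next in the order in 4 of 4 libraries, except that Gja1 was above Esam, and Esam above Cdh5, in 3 of 4. The ranges over the 4 libraries of neighbors in this order overlapped for Pecam1 and Gja1, Gja1 and Esam, Esam and Cdh5, Cdh5 and Gja5, and Jam3 and Jam2. In clusters the means ran from 128 RPKM for Cldn5 to 1.79 for Jam2, and the ranges of every pair of neighbors overlapped. Among the cluster libraries the highest exceeded the lowest 148-fold for Gja5, 29.7-fold for Cldn5, 21.9-fold for Gja4 and 16.6-fold for Esam, but 2.43-fold for Gja1 and 2.23-fold for Jam3. In endothelium the same ratio was at most 3.09, for Jam3.

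Expressed as shares, the summed RPKM of Gja1, Gja4 and Gja5 was made up in much the same way in all 4 endothelium libraries. Gja4 took 49.8% to 56.4%, Gja1 26.5% to 33.1% and Gja5 15.0% to 17.8%, of sums between 520 and 772 RPKM. In clusters the sums were 104 and 52.7 RPKM in the wild type libraries and 205 and 154 in the Sl/Sl ones, and Gja1 took the largest share in 3 of the 4 libraries, at 71.7% and 89.6% in wild type and 74.8% in Sl/Sl replicate 2. The other library, Sl/Sl clusters replicate 1, had 33.3% Gja1 and 57.7% Gja4 and so lay next to endothelium, as it did in endothelial markers. Gja5 took 6.64% and 0.237% in wild type clusters and 9.02% and 2.63% in Sl/Sl clusters, below each endothelium library.

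**Figure D3:**
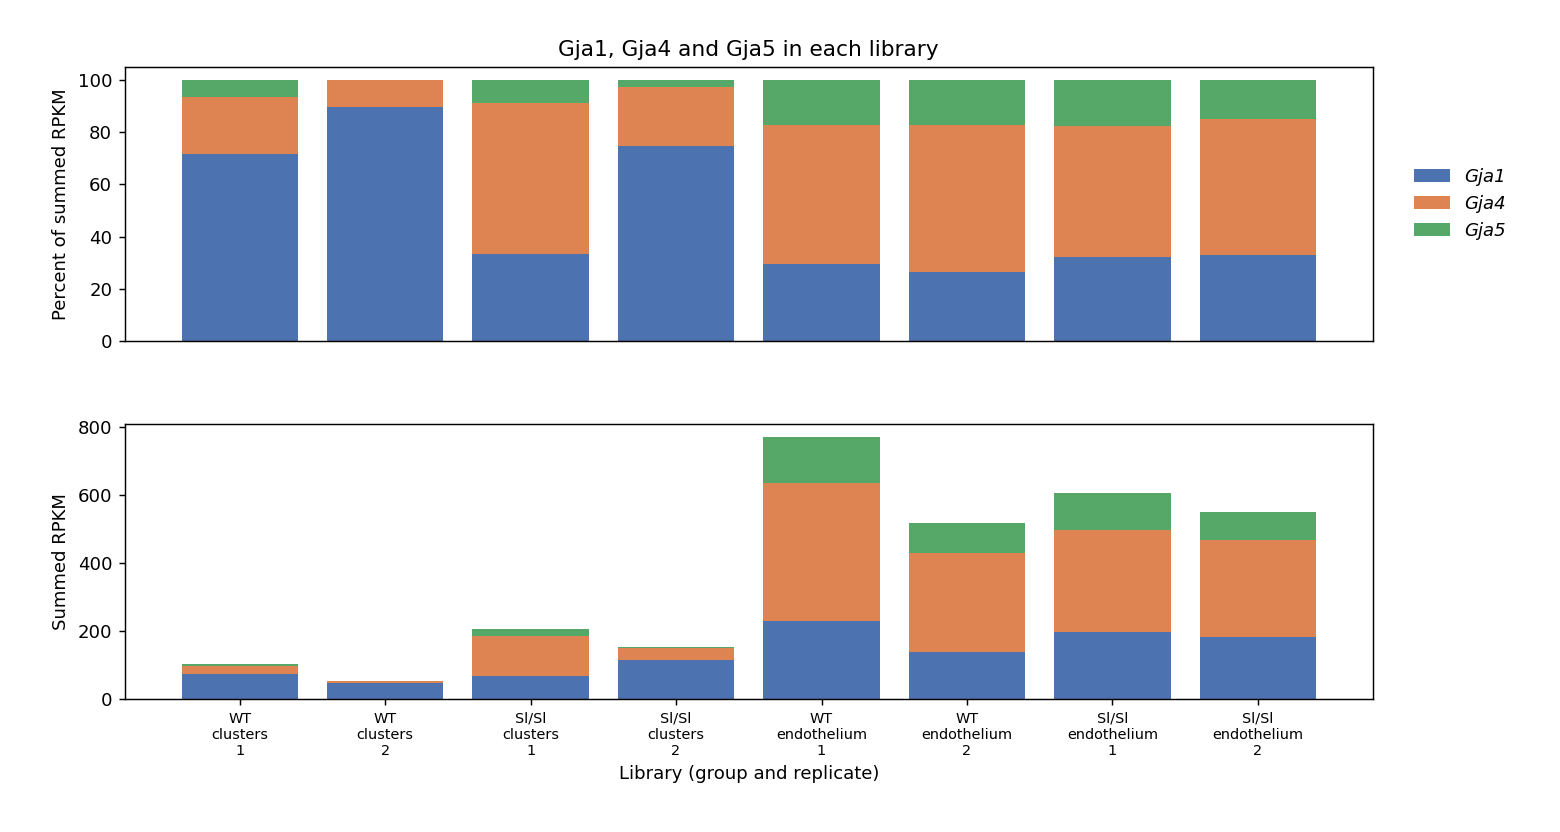
Connexin genes in each library, above as percent of the summed RPKM of Gja1, Gja4 and Gja5 and below as the sum itself, stacked by gene. Gja4 holds 49.8% to 56.4% in the endothelium libraries, and Gja1 more than 70% in 3 of the 4 cluster libraries.

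To see which genes moved apart from VE-cadherin itself, each level was divided by that of Cdh5 in the same library, on the log2 scale with 0.1 RPKM added. The values are a description and were not tested. Gja5 was the one junction gene whose ratio was lower in every cluster library than in every endothelium library, at -3.82 to -1.04 against -0.68 to -0.25. Of 13907 genes, 18 (0.129%) were lower in clusters in this way. Jam3 and Tjp1 were higher relative to Cdh5 in clusters without overlap, by 3.67 and 1.00 on average, and 62.2% of all genes were. For Gja4 the mean ratio was 0.63 in clusters and 1.23 in endothelium, and for Cldn5 1.96 and 2.20, with ranges that overlapped. The number of genes without overlap was 6 in place of 3 when wild type clusters replicate 1, the cluster library with the most Cdh5, was left out. Wild type clusters replicates 1 and 2 lay far apart. As a plain ratio of RPKM, with nothing added, Pecam1 was 0.888 times Cdh5 in the one and 9.34 times Cdh5 in the other, while in endothelium it was 1.43 to 1.70 times Cdh5.

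**Figure D4:**
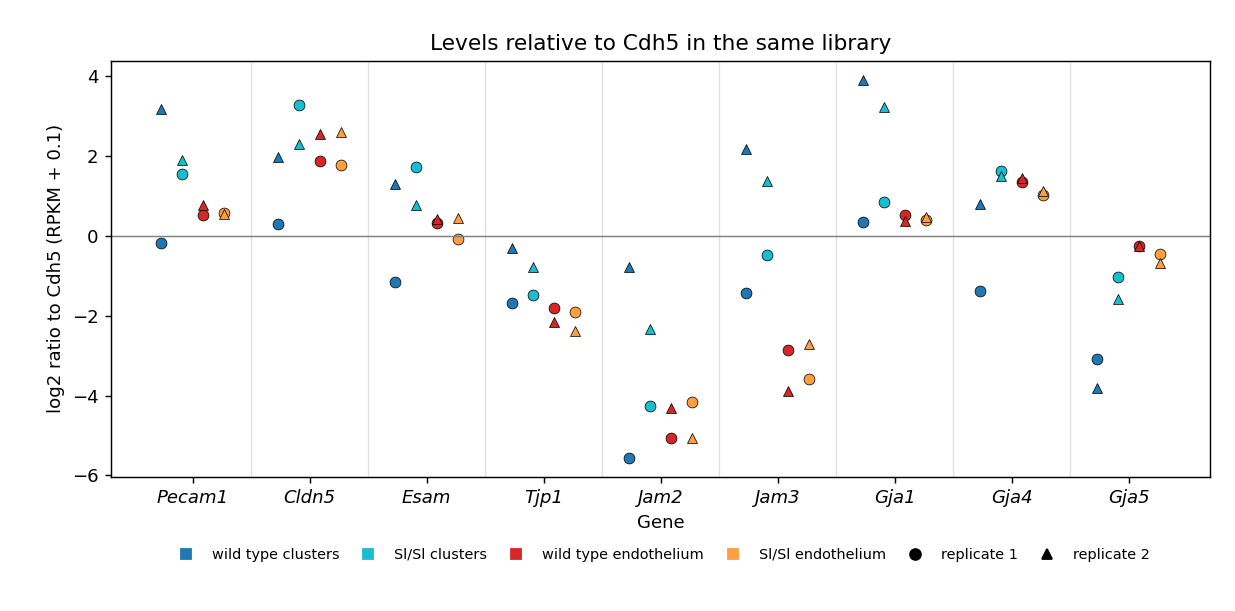
Log2 ratio of each junction gene to Cdh5 in the same library (RPKM with 0.1 added), with circles for replicate 1 and triangles for replicate 2. Over the 4 endothelium libraries the SD runs from 0.068 for Gja1 to 0.56 for Jam3, and Gja5 is lower in every cluster library than in every endothelium library.

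The second question was whether the loss of Kitl changes these genes. In clusters, edgeR called 0 of the 10 junction genes between the genotypes, as it did 0% of all genes. At an unadjusted p under 0.05 edgeR gave 587 genes, 4 of them junction genes, and DESeq2 called 175 genes, of which Gja4 was 1. The median log2 fold change of the junction genes, Sl/Sl over wild type, was 0.86, against 0.03 over all genes, and 9 of 10 were above 0. Gja4 had the largest value, 2.51 (SE 0.68, adjusted p = 0.693 in edgeR and 0.00651 in DESeq2), from 22.5 and 5.38 RPKM in wild type to 118 and 34.8 in Sl/Sl. Cldn5 (2.39, SE 0.88), Esam (2.18, SE 0.78) and Pecam1 (0.99, SE 0.41) followed. These 3 overlapped between the genotypes, with adjusted p of 1 each. Without overlap and higher in Sl/Sl were Gja4, Jam2 (0.55, SE 0.76) and Jam3 (0.73, SE 0.62), 3 of 10 against 16.5% of all genes. Cdh5 was at -0.24 (SE 0.96) and Tjp1 at 0.03 (SE 0.74).

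Among the cluster libraries, Gja4, Gja5, Cldn5, Esam and Pecam1 were lowest in wild type replicate 2 and highest in Sl/Sl replicate 1, as were the endothelial markers. Jam2, Jam3 and Gja1 were instead highest in Sl/Sl replicate 2, and Cdh5 and Tjp1 in wild type replicate 1. The summed RPKM of the 15 endothelial markers was 290.4 in wild type clusters replicate 2 and 2011 in Sl/Sl clusters replicate 1, and the other 2 cluster libraries were at 787 and 512. Leaving out both libraries that stand apart, a choice made after seeing these sums, narrows the genotype difference by construction. It leaves 1 library against 1, so that only the size of the difference is given. The log2 fold change of Gja4 was then 0.65, and those of Cldn5, Esam and Pecam1 were -0.24, -0.29 and -0.15. Cdh5 was at -2.24. The part of endothelial markers in these differences was not tested. Macrophage, megakaryocyte and sarcomere markers differed between these libraries too. The 10 macrophage markers summed to 774 and 210.1 RPKM in wild type clusters and 737 and 373 in the Sl/Sl ones. Lyz2 alone was 696 and 126 of these against 544 and 296, and the list medians were 4.11 and 6.89 against 17.1 and 3.43. The 10 megakaryocyte markers summed to 123 and 1418 against 348 and 2262. The 9 sarcomere markers summed to 16.2 and 55.5 against 267 and 591, with Actc1 alone at 245 and 251 in the Sl/Sl libraries. The part of these marker lists in the result was not tested.

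**Figure D5:**
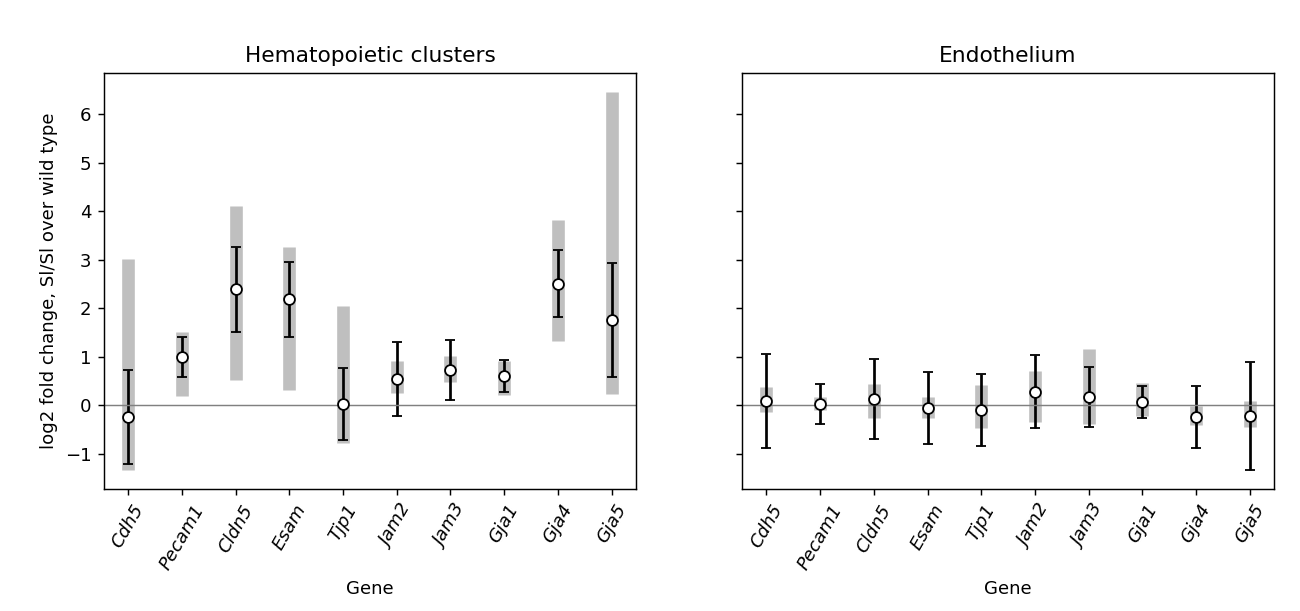
Log2 fold change of each junction gene, Sl/Sl over wild type, in clusters and in endothelium, with bars of 1 standard error from edgeR and gray bars for the range when each library was left out in turn. In clusters the gray bars are long, from 0.23 to 6.45 for Gja5. In endothelium all points lie between -0.23 and 0.28, and the gray bars reach down to -0.46 (Tjp1) and up to 1.17 (Jam3).

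In endothelium the genotypes were close. No junction gene passed the threshold (0 of 10, against 0% of all genes), 580 genes and 0 junction genes had an unadjusted p under 0.05 in edgeR, and DESeq2 called 178 genes and 0 of the 10. The log2 fold changes ran from -0.23 for Gja4 to 0.28 for Jam2, all adjusted p were 1, and all 10 genes overlapped between the genotypes, whereas 28.3% of all genes did not. Standard errors ran from 0.33 for Gja1 to 1.11 for Gja5. The difference between the genotype effect in clusters and that in endothelium was tested as an interaction, and 0 of 10 junction genes and 0% of all genes passed. It was largest for Gja4, at 2.74 (SE 0.93, adjusted p = 0.902). At an unadjusted p under 0.05 there were 736 genes and 1 junction gene, Gja4, and DESeq2 called 175 genes and 0 of the 10. With 2 libraries against 2, the smallest p that an exact two-sided permutation of 1 gene can reach is 0.333, and the model borrows the spread from other genes.

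Other genes of the same junctions were followed as lists. Of 15 further adherens junction genes, 8 rose in endothelium over clusters and 0 fell over both genotypes, where 8.48% of all genes were called higher, with a list median of 1.30 on the log2 scale against -0.07 over all genes. The 8 were Ctnnb1, Ctnna1, Ctnnd1 and Jup, for catenins, with Mllt4 (afadin), Pvrl2 (nectin-2), Icam2 and Ptprb (the phosphatase VE-PTP, a partner of VE-cadherin). Ptprb had a log2 fold change of 2.72 (SE 0.55, adjusted p = 0.0147) and Icam2 one of 2.37 (SE 0.32, adjusted p = 0.00249). Pvrl2 was at 2.18 and Mllt4 at 2.15. Icam2 was at 94.1 and 51.6 RPKM in wild type and at 254.9 and 95.3 in Sl/Sl clusters, and at 481 to 579 in endothelium.

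Of 31 further tight junction genes 26 were tested, and 7 rose while 0 fell, against the same 8.48% of all genes, with a list median of 0.53. They were F11r (JAM-A), Cgnl1 (paracingulin), Magi1, Magi3, Pard3, Amotl1 and Amotl2. Amotl1, for a member of the angiomotin family, stood out from its list at 1.94 and 0.801 RPKM in wild type clusters, 12.5 and 8.65 in Sl/Sl clusters and 23.6 to 46.5 in endothelium (log2 fold change 3.38, SE 0.35, adjusted p = 0.000621). In wild type alone 5 adherens and 3 tight junction genes of these lists rose, against 4.56% of all genes, and in Sl/Sl alone 0 and 1, against 0.985%, the 1 being F11r (1.98, adjusted p = 0.0636), which is named because it was the only one. Between genotypes 0 genes of either list were called in clusters or in endothelium, as were 0% of all genes. Amotl1, Sl/Sl over wild type, was at 2.99 (SE 0.49, adjusted p = 0.200 in edgeR) in clusters and -0.06 (SE 0.45) in endothelium. It is given here after its values were seen.

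Gap junction genes other than Gja1, Gja4 and Gja5 were scarce. Of 18 further connexin and pannexin genes 15 were too low to be tested, and of the 3 tested ones (Gjb5, Gjc1 and Panx1) 0 passed the threshold. Gjc1, for Cx45, was at 5.40 to 9.53 RPKM in clusters and 7.01 to 22.5 in endothelium (log2 fold change 1.14, SE 0.47, adjusted p = 0.159). Panx1, for the channel protein pannexin 1, was at 7.56 to 22.6 RPKM in clusters and 2.78 to 11.2 in endothelium (-0.78, SE 0.57, adjusted p = 0.431). No exon of the 10 junction genes overlapped an exon of a gene within 100 kb in the deposited table.

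Arterial and venous markers bear on the connexins, as Cx37 and Cx40 are known from arteries. The 10 arterial markers (such as Efnb2 and Dll4) summed to 687 to 823 RPKM in endothelium, to 140 and 45.8 in wild type clusters and to 214 and 149 in Sl/Sl clusters. The 5 venous markers (such as Nr2f2 and Aplnr) summed to 171 to 193 RPKM in endothelium, to 16.5 and 10.5 in wild type clusters and to 55.5 and 56.2 in Sl/Sl clusters. Of the arterial markers 9 of 10 and of the venous markers 5 of 5 were called higher in endothelium over both genotypes, against 8.48% of all genes. The lower levels in clusters were therefore not particular to either list. Transcripts of both lists were thus found in the endothelium libraries.

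Finally, the genes whose levels over the 8 libraries followed each of 4 junction genes most closely were listed, by the mean absolute difference of log2 CPM after centering each gene on its mean. Nearest to Cdh5 were Arhgef15 (0.193 on the log2 scale), Prex2 (0.258) and Slc41a1 (0.274), and nearest to Gja1 were F2r (0.128), Ski (0.144) and Lpp (0.154). Nearest to Gja4 were Ctsh (0.242), Cav2 (0.262) and Efna1 (0.267). Gja5, which spread most, had no gene as near, and Cav1 (0.306), Stab1 (0.410) and AU021092 (0.417) came first. Among the junction genes themselves the nearest pair was Cldn5 and Esam (0.319), followed by Gja4 with Cldn5 (0.350), and Jam3 was farthest from any other, at 1.01 from Gja1. The libraries share their cell type, so that such closeness is a description of these 8 samples.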

How the data were processed

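RNA was measured in 8 libraries of 100 sorted cells, 2 in each of 4 groups taken from the sample labels. The authors prepared Smart-seq2 libraries, sequenced 75 bp read pairs, aligned them to mm9 with STAR 2.4.2a and counted reads per gene with featureCounts of Subread 1.4.5, and the deposited values are raw counts, not normalized. The annotation, the strand setting and the treatment of reads that match several places are not given in the sources used here, and the method has no molecular identifiers, so that counting limits cover counting error only. The study itself tested with DESeq2 1.12.4 at an adjusted p of 0.1.

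Counts on the 13908 genes kept by filterByExpr were scaled with TMM factors (0.940 to 1.079) and fitted together with the quasi-likelihood test of edgeR 4.0.16 in R 4.3.3 (limma 3.58.1), 1 mean per group, with Benjamini-Hochberg adjustment over all tested genes. The biological coefficient of variation was 0.817, with 4 residual and 5.24 prior degrees of freedom. Standard errors were the log2 fold change divided by the square root of F. RPKM used the table's exon lengths and plain totals of counts on genes, and log2 CPM used a prior count of 2.

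The 10 genes, the further lists, the marker lists and the alternatives were chosen with earlier results of these data known. All 10 genes are named, with the called genes of the further lists, up to 5 of largest change with values, and the 3 genes nearest to Cdh5, Gja1, Gja4 and Gja5. Genes named outside this rule (F11r, Gjb5, Gjc1 and Panx1) were named after their values were seen. Alternatives were DESeq2 1.42.0, median-of-ratios (RLE) factors, every gene with a count kept, a minimum of 10 counts per library, a threshold of 0.05, only the 4 libraries compared, the replicate number as a block, TMM-scaled totals, a pseudocount of 1 RPKM and each library left out, and, chosen after seeing the data, 2 cluster libraries left out together. The test was checked on simulated counts. Some items are not reported here.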

Additional observations from a re-analysis of the deposited data

How the results depend on the processing

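Directions over both genotypes were kept for the 10 genes under every alternative run. The number of junction genes called over both genotypes was 9, and 8 or 9 under DESeq2, RLE factors, no filter, at least 10 counts (where Gja5 was not tested), the replicate block and both libraries left out, 6 at an adjusted p of 0.05, and 6 to 9 when each library was left out. In wild type it was 6, 5 to 8 under the other settings, and 4 to 8 when each library was left out. In Sl/Sl it was 0 but 4 in DESeq2, 8 with no filter on low counts, 2 with the replicate block, 7 with both cluster libraries that stand apart left out, and 0 to 6 when each library was left out. Between genotypes in clusters it was 0 but 1 in DESeq2 and 5 with no filter. For the interaction it was 0 but 4 with no filter, and in endothelium it was 0 throughout. Calls in clusters and for the interaction also appeared in fits with single libraries or both left out. These fits leave 1 library in a group, and their counts of calls between genotypes are not given. The count of ratios to Cdh5 without overlap was 3, and 3 to 6. The cause of these changes was not tested.

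Genes called in all moved from 2310 to 3614 (DESeq2) over both genotypes, from 1146 to 2613 and 1990 (DESeq2, no filter) in wild type, and from 393 to 1631 and 1266 in Sl/Sl, where the 4 libraries alone gave 211, both libraries left out 607 and at least 10 counts 269. From 0 they moved to 175 and 253 between genotypes in clusters (8 with the block, 9 at 10 counts). In endothelium they moved to 178 and 65 (2 with 4 libraries), and for the interaction to 175 and 179. An adjusted p of 0.05 gave 1488, 657 and 222 between cell types, over both genotypes, in wild type and in Sl/Sl, and both libraries left out gave 763 in wild type.

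Replicate numbers are shared by the groups, and the labels do not tie them to the paper's 2 sorting experiments. The deviations of same-numbered libraries correlated at -0.11 to 0.16. In clusters of both genotypes, replicate 1 was above replicate 2 in summed endothelial markers (787 and 290.4 RPKM in wild type, 2011 and 512 in Sl/Sl). Megakaryocyte markers ran the other way (123 and 1418, 348 and 2262). Whether the numbers stand for a shared sort was not tested. With the replicate block 8 junction genes were called over both genotypes (Jam2 lost, adjusted p = 0.110), 8 in wild type and 2 in Sl/Sl, and it turned Cdh5 in clusters to 0.15 and Esam in endothelium to 0.087, Sl/Sl over wild type.

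Leaving out both libraries turned, in clusters, Pecam1 to -0.15, Cldn5 to -0.24, Esam to -0.29, Tjp1 to -1.36 and Gja5 to -0.74, and in the interaction Pecam1 to -0.18, Cldn5 to -0.39, Esam to -0.25, Tjp1 to -1.27 and Gja5 to -0.54. These left out the cluster libraries with the lowest and the highest endothelial markers, which narrows the genotype difference by construction. A lone library left in a group was taken to vary like the others. Leaving out single libraries turned values near 0, whose ranges were, Sl/Sl over wild type in clusters, -1.32 to 3.03 for Cdh5 and -0.78 to 2.04 for Tjp1. In endothelium they were -0.27 to 0.17 for Esam, -0.46 to 0.42 for Tjp1, -0.44 to 0.086 for Gja5, -0.13 to 0.39 for Cdh5, -0.10 to 0.17 for Pecam1, -0.38 to 1.17 for Jam3, -0.22 to 0.45 for Gja1, -0.34 to 0.71 for Jam2 and -0.25 to 0.44 for Cldn5. For the interaction they were -1.41 to 2.93 for Cdh5, -0.14 to 0.89 for Jam2, -0.68 to 2.14 for Tjp1 and -0.44 to 1.13 for Jam3. For Jam3 in wild type, endothelium over clusters, the range was -1.17 to 0.40.

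The junction genes had at least 60 counts in every library, apart from Gja5 with 5 counts in wild type clusters replicate 2. Counts from amplified cDNA of 100 cells do not give the number of molecules.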
